A study of Mus musculus with 4 samples.

Results

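Vdr, which encodes the vitamin D receptor, and Cyp24a1, which encodes the enzyme that breaks its hormone down, were examined in maps of phosphorylated CREB on the chromatin of the mouse pre-osteoblast line MC3T3-E1. Phospho-CREB was precipitated with an antibody against CREB phosphorylated at serine 133 and the DNA was sequenced (ChIP-seq). Cells had been given 100 nM forskolin, an activator of adenylyl cyclase that raises cAMP, or DMSO vehicle, each for 1 h before the assay, and each treatment had 2 libraries that the labels call biological replicates. Each library was represented by its own peak list, with 25566 and 19371 peaks under forskolin and 14686 and 10180 under vehicle. The lists give no read totals, so depth is not stated, and they hold no expression values against which the labelled cell type could be checked.

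Peaks of the 4 lists were merged wherever they shared at least 1 bp, which gave 28335 regions in mouse build mm9 (NCBIM37). A region was counted to a gene when its centre lay inside the gene or within 100 kb of any of its transcription start sites (TSS). This gave 22 regions for the 2 genes out of 22225 annotated protein-coding genes, 15 for Vdr and 7 for Cyp24a1. A region called in both forskolin and neither vehicle library is named forskolin-only. Scores are the authors' deposited values of unstated scale and served only to rank peaks within a list. A percentile is the share of a list's peaks with a lower score, ties counted by their midpoint.

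The vitamin D receptor is a nuclear receptor that binds the hormone 1,25-dihydroxyvitamin D3 and acts on DNA as a partner of the retinoid X receptors, typically at vitamin D response elements (VDRE) made of a direct repeat. In bone-forming cells it regulates mineral and matrix genes, and Vdr itself is known to respond to its own hormone and to the cAMP and protein kinase A pathway used by parathyroid hormone, through enhancers inside and upstream of the gene. CYP24A1 is a mitochondrial 24-hydroxylase. Cyp24a1 is among the genes most strongly induced by the hormone and closes a negative feedback loop.

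The 3 stretches below are printed on the plus strand of mm9, while both genes lie on the minus strand. They are the 300 bases centred on the region 58.7 kb downstream of the Vdr TSS and past its last exon (chr15:97679909-97680208), which held the palindromic cAMP response element (CRE), on the region in intron 2 of Vdr (chr15:97717998-97718297) and on the higher-ranked of the regions called upstream of Cyp24a1 in all 4 libraries, judged by its mean forskolin percentile (chr2:170334444-170334743). Capitals mark the core of the cAMP response element, TGACG on either strand, the palindrome TGACGTCA where complete, and the RUNX site TGTGGT on either strand.
Vdr, downstream region: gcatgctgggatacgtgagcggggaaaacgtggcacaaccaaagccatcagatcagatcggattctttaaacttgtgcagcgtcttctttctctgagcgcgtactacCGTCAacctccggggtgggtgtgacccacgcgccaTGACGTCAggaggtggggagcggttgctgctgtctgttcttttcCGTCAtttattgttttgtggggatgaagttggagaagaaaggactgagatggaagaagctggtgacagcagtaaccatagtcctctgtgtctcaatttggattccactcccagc
Vdr, intron 2 region: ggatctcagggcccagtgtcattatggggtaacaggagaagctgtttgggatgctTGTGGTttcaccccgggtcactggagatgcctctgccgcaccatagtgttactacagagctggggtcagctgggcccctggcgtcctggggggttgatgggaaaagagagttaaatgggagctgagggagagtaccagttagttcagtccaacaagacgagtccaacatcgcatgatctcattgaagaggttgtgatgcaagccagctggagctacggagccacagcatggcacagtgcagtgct
Cyp24a1, upstream region: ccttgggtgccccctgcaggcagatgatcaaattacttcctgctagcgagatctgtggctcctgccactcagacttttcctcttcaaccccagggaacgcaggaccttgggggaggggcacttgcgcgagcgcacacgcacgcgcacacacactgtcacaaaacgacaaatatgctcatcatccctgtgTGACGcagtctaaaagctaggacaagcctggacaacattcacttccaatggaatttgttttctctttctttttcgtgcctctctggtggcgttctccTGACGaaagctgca

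Vdr (ENSMUSG00000022479.9) covers 97684856 to 97741061 of chromosome 15, with 10 exons in its annotated coding transcript and 5 different annotated TSS. Distances below run from the TSS of that coding transcript at 97738741. The region with the highest forskolin ranks of either gene lay 6.2 kb upstream, between genes on chromosome 15, and nearer to a Vdr TSS than to that of any other gene. It was called in all 4 libraries. Its deposited score was 295.5 and 146.6 in forskolin replicates 1 and 2, against 17.2 and 14.8 in vehicle replicates 1 and 2. Within the lists this put it at rank 34 of 25566 and 106 of 19371 under forskolin, and at rank 3813 of 14686 and 2885 of 10180 under vehicle. On chromosome 15 alone it ranked 3 of 1206 and 7 of 905 under forskolin and 173 of 696 and 134 of 480 under vehicle. The site was thus called without forskolin as well, in the upper part of both vehicle lists but far from their top. Both forskolin libraries stood above both vehicle libraries. By percentile within the whole lists, this order held for 44.6% of the 8930 regions called in all 4 libraries.

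Ranks in lists of different length are not directly comparable, so the regions called in all 4 libraries, 8930 in number, were also ranked among themselves, which gives every library the same set. In this set the upstream Vdr region stood at percentiles 99.6 and 98.8 in the forskolin and 58.5 and 68.0 in the vehicle libraries. The difference of the means, 35.9 percentile points, was the 485th largest of the 8930. Both forskolin values exceeded both vehicle values in 18.4% of the 8930 regions, so this order alone is not rare. With equally long lists of the 10180 top-scoring peaks each, the percentiles were 99.7 and 99 under forskolin and 62.1 and 71.3 under vehicle. Of the 181 regions at or above percentile 99 in both forskolin lists, 14 (7.73%) were below percentile 75 in both vehicle lists and the upstream Vdr region was 1 of them. These limits were set after its values had been seen. A further 2 of the 181 (1.10%) had no vehicle peak.

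**Figure D1:**
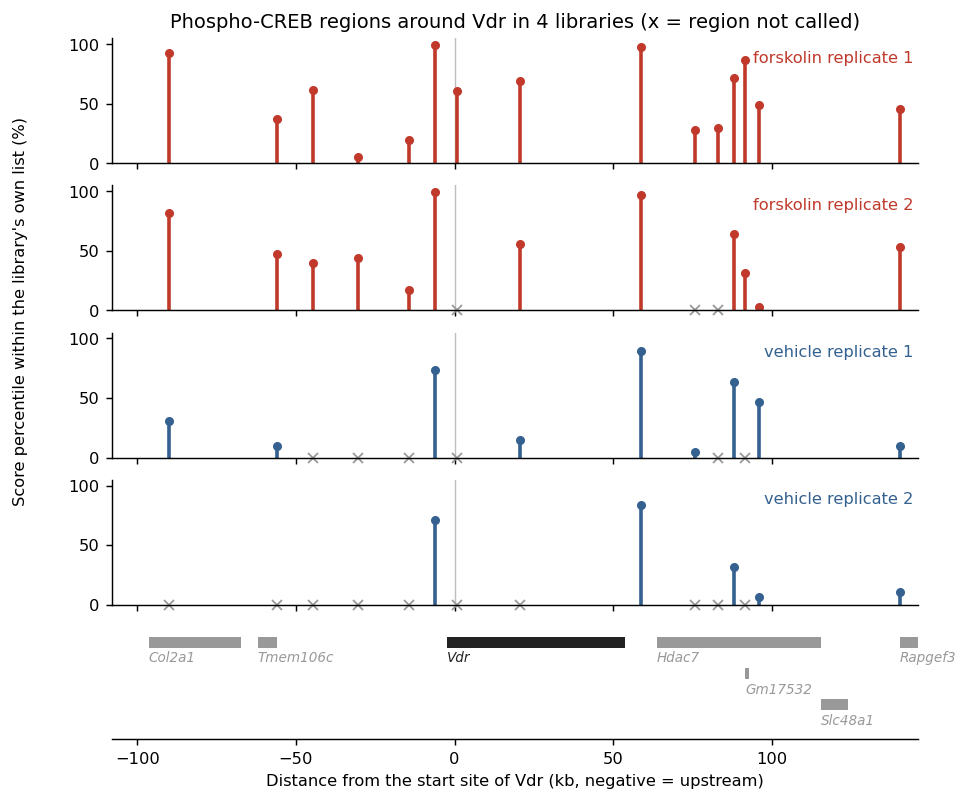
Phospho-CREB regions around Vdr. The x axis is the distance from the Vdr TSS in kb with upstream to the left, each panel is 1 library, and the height of a stem is the score percentile within that library's list, while a cross marks a region not called. Grey and black bars are genes. The region 6.2 kb upstream reached percentiles 99.9 and 99.5 in the forskolin libraries and 73.7 and 71.3 in the vehicle libraries, and 6 of the 15 regions had no peak in either vehicle library, against 45.6% of all 28335 regions.

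The second region of high rank lay downstream of Vdr, 58.7 kb from its TSS and between genes (chromosome 15, 97679881 to 97680237), on the side of Hdac7, a histone deacetylase gene whose TSS was 5126 bp away. It was called in all 4 libraries, with scores of 118.9 and 81.9 under forskolin and 30.2 and 21.3 under vehicle. These were percentiles 97.9 and 97.1 in the forskolin and 89.6 and 83.8 in the vehicle lists. Among the 8930 shared regions it stood at 94.4 and 94.0 under forskolin and 83.2 and 81.8 under vehicle, a difference of 11.7 points that was 1574th in size. It was the only region of either gene with the palindromic CRE, TGACGTCA, which starts at -8 bp from its centre. That palindrome occurred in 3.53% of all regions and in 6.64% of those called in every library. The region held 4 matches to the core in all, of which 2 are the arms of the palindrome.

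Inside Vdr 2 regions were called, both in introns. The region in intron 2, 20.6 kb downstream of the TSS (97717982 to 97718313), had peaks under forskolin in replicates 1 and 2 and under vehicle in replicate 1, with scores of 22.7 and 15.8 under forskolin and 7.2 under vehicle. Its percentiles were 69.0 and 55.9 in the forskolin lists and 14.4 in that vehicle list. It held a RUNX site and no CRE core within 100 bp of the centre. The other, in intron 1 at 745 bp from the TSS (97737841 to 97738151), was called in forskolin replicate 1 alone, at percentile 60.7. No other region lay within 1 kb of a Vdr TSS. For comparison, 44.5% of protein-coding genes had a region of some kind within that distance and 30.4% had 1 that was called in every library.

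Of the 15 regions at Vdr, 5 were called in all 4 libraries (31.5% of all 28335 regions), 3 in both forskolin libraries and 1 vehicle library (12.1% of all), 2 in a single library (30.2%), 1 in 1 library of each treatment (7.51% in this or other mixed patterns) and 0 in vehicle libraries only (0.441%). Vdr had 4 forskolin-only regions, of which 3 lay upstream between genes and 1 downstream. The downstream region, 91.4 kb from the TSS in an intron of Hdac7 (97647171 to 97647528), scored 43.0 and 11.0, at percentiles 87.1 and 31.9, so the 2 forskolin libraries placed it very differently. It held a CRE core and the hexamer AGGTCA. The upstream regions at 14.3 kb (97752894 to 97753248), 30.5 kb (97769063 to 97769383) and 44.6 kb (97783112 to 97783559) ranked low to middle. Their percentiles were 20.1 and 17.1, 4.99 and 44.1, and 61.3 and 40.3 in forskolin replicates 1 and 2. Of the 4 forskolin-only regions, only that at 14.3 kb had a Vdr TSS as its nearest. Those at 30.5 and 44.6 kb were nearest to Tmem106c, 25487 and 11374 bp away, and that at 91.4 kb to Gm17532, 1495 bp away. A count of 4 forskolin-only regions among 15 stands beside 18.3% of all 28335 regions. Of the 11 Vdr regions over 1 kb from any TSS, 4 were forskolin-only and 4 were called in all libraries, against 24.8% and 16.2% of the 18183 such regions in the series. The forskolin-only count was 1 with equally long lists, 2 with the top 50% of each list and 7 without vehicle replicate 1. Counted by gene, 2.61% of the 22225 protein-coding genes had at least as many forskolin-only regions, and 2.65% at least as many regions of any kind. The several TSS of Vdr widen its window to 250.932 kb, against 200 kb for Cyp24a1.

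For 4 of the 15 Vdr regions the nearest TSS was a TSS of Vdr, and whether any of the 15 acts on Vdr cannot be told from occupancy. The remaining Vdr regions lay at or inside its neighbours. At Hdac7 these were regions of all 4 libraries 88.1 and 96.0 kb downstream, both in introns, a region of forskolin replicate 1 and vehicle replicate 1 at -599 bp from a Hdac7 TSS, and a region of forskolin replicate 1 alone. The region 88.1 kb downstream (97650412 to 97650797) stood at percentiles 39.8 and 41.5 under forskolin and 44.3 and 27.5 under vehicle among the shared regions, so the treatments overlapped. That 96.0 kb downstream (97642499 to 97642965) was at 11.1 and 0.817 under forskolin and 25.1 and 5.43 under vehicle, again overlapping. The farthest, 140.3 kb from the coding TSS but 91.7 kb from the innermost annotated one, lay at -38 bp from a TSS of Rapgef3, which encodes a cAMP-activated exchange factor (97598218 to 97598664). It was called in all 4 libraries at percentiles 45.5 and 53.3 under forskolin and 9.76 and 10.9 under vehicle. Among the shared regions its values were 8.42 and 28.8 under forskolin against 3.02 and 8.84 under vehicle, and the groups overlapped.

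On the upstream side, a region at -172 bp from Tmem106c (97794259 to 97794816) and a region in an intron of Col2a1, the type II collagen gene of cartilage (97828425 to 97828751), had the same pattern of calls as the region in intron 2. The Col2a1 region ranked high under forskolin, at percentiles 93.1 and 82.3, against 31.1 in that vehicle list. It held none of the motifs searched. Just beyond the 100 kb limit, a region 104.1 kb from the nearest Vdr TSS was forskolin-only at percentiles 32.3 and 8.46. The next upstream, 118.5 kb from the nearest TSS, was called in all 4 libraries at 92.8 and 84.1 under forskolin and 65.8 and 59.3 under vehicle.

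Around Vdr 15 and 12 regions had a peak under forskolin, against 9 and 5 under vehicle. This is 13.5 ± 2.12 under forskolin and 7.0 ± 2.83 under vehicle (mean and SD of 2 libraries). An exact two-sided permutation test gave p = 0.333, the smallest value that 2 libraries against 2 allow, so neither this nor any other contrast of the libraries could pass a threshold of 0.05. As shares of their lists these peaks were 0.0587% and 0.0619% under forskolin and 0.0613% and 0.0491% under vehicle, which overlap. With equally long lists the difference in means was 2.50 peaks, against 6.50 with the whole lists. Over the 5 Vdr regions called in every library, the mean percentile was 72.8 and 63.4 under forskolin and 56.7 and 40.9 under vehicle (difference 19.3 points, exact permutation p = 0.333, n = 2 each). Among the 8930 shared regions the same means were 50.7 and 52.8 against 42.8 and 38.3 (difference 11.2 points, exact permutation p = 0.333). The regions were unequal in this, with a difference of 35.9 points for that 6.2 kb upstream. Downstream, the differences were 11.7 at 58.7 kb, 4.71 at 88.1 kb, -9.32 at 96.0 kb and 12.7 at 140.3 kb. In this set 2 of the 5 regions, those 6.2 kb upstream and 58.7 kb downstream, had both forskolin values above both vehicle values, against 18.4% of the 8930. By percentile within the whole lists 4 of the 5 had this order, against 44.6% of the 8930.

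**Figure D2:**
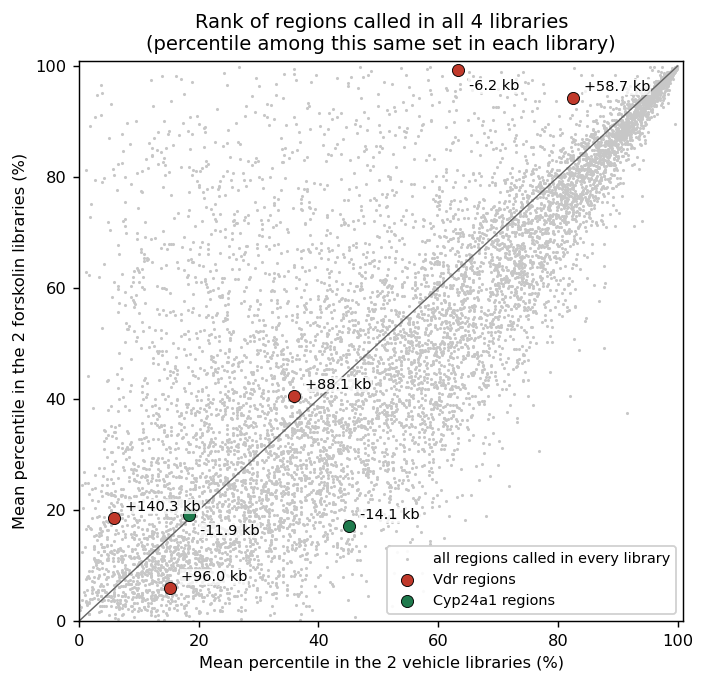
Regions called in all 4 libraries, ranked among themselves. The y axis is the mean percentile in the 2 forskolin libraries and the x axis that in the 2 vehicle libraries, grey points are all 8930 regions, labels give the distance from the gene's TSS, and the line marks equal ranks. The Vdr region 6.2 kb upstream lies far above the line at a difference of 35.9 points, while the Cyp24a1 region 14.1 kb upstream lies below it.

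At Cyp24a1 (ENSMUSG00000038567.5, chromosome 2, 170308208 to 170322645, 12 exons and 1 annotated TSS) no phospho-CREB region was called inside the gene or within 10 kb of its TSS in any of the 4 lists. A region of any kind within 10 kb of a TSS was present for 55.2% of the 22225 protein-coding genes. The nearest regions lay upstream in Pfdn4, a prefoldin subunit gene that runs the other way, and each of the 7 regions was closer to the TSS of another gene than to that of Cyp24a1. Occupancy below the calling threshold of the authors would not appear in such lists.

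The region 11.9 kb upstream (170334408 to 170334780, in an intron of Pfdn4) was called in all 4 libraries, at percentiles 37.2 and 58.2 under forskolin and 7.73 and 39.0 under vehicle. Among the 8930 shared regions these became 4.31 and 34.1 under forskolin and 2.36 and 34.3 under vehicle, so the groups overlapped and the replicates of a treatment differed more than the treatments. Within 100 bp of its centre it held a single CRE core, starting at 39 bp. The other core marked in its printed 300 bases lay beyond that distance. The region 14.1 kb upstream (170336580 to 170336988) covers an exon at 49 bp from a TSS of Pfdn4 and was also called in all 4 libraries. Its percentiles were 66.7 and 8.46 under forskolin and 65.2 and 48.7 under vehicle. Among the shared regions they were 31.7 and 2.51 under forskolin and 46.5 and 43.8 under vehicle, with both forskolin values below both vehicle values. The difference, -28.1 points, was opposite in sign to that of the upstream Vdr region, with forskolin replicate 2 far below the other 3 libraries.

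Cyp24a1 had 2 forskolin-only regions, both downstream in introns of Bcas1 and both of modest rank. That at 85.2 kb (170237266 to 170237587) stood at percentiles 11.4 and 58.2 in forskolin replicates 1 and 2, and that at 93.2 kb (170229272 to 170229674) at 33.6 and 17.1. Neither held a CRE core. At least 7 regions of any kind were counted to 29.8% of protein-coding genes, at least 2 forskolin-only regions to 16.8%, and at least 1 to 40.1%. The count was 0 within 50 kb and 7 within 200 kb, so it depends on the window. The other regions were a peak of forskolin replicate 1 alone 95.5 kb downstream, another 55.1 kb upstream, and a region 29.6 kb upstream called in forskolin replicate 1 and in both vehicle libraries (170352053 to 170352504), at percentiles 41.6 under forskolin and 37.8 and 3.52 under vehicle. Beyond the limit, a region 112.4 kb downstream was forskolin-only at percentiles 49.0 and 50.5. The next region upstream lay 1823.9 kb away, called in forskolin replicate 2 alone at percentile 2.99. Whether peaks between 55.1 and 1823.9 kb upstream were left out of the lists could not be checked.

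**Figure D3:**
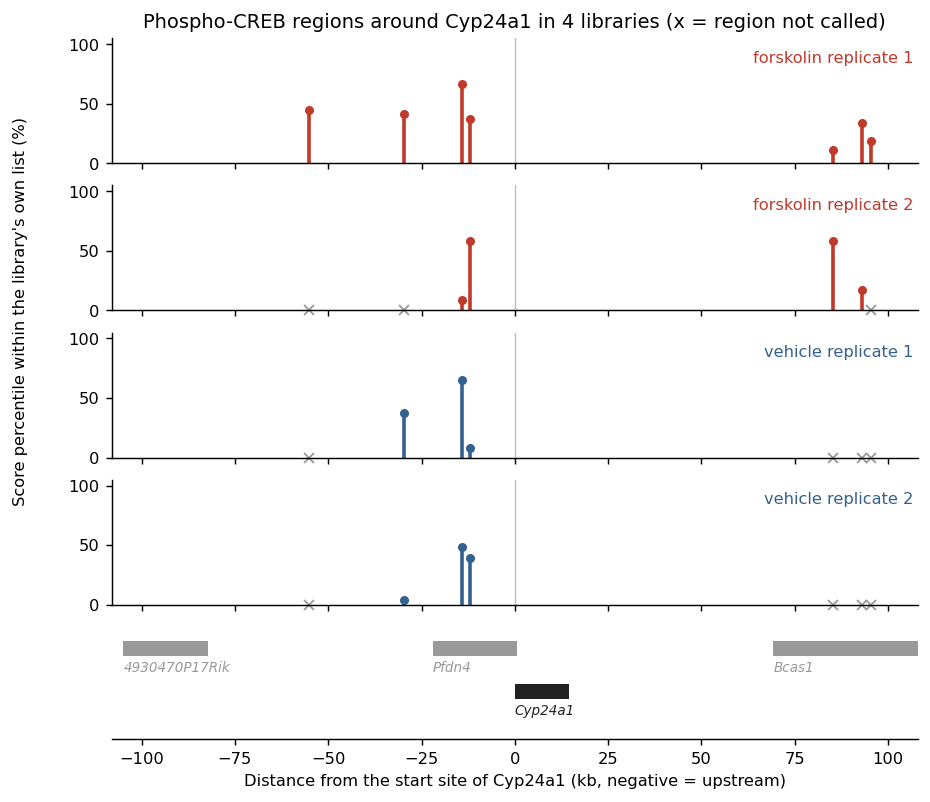
Phospho-CREB regions around Cyp24a1, drawn as for Vdr: distance from the TSS in kb on the x axis, score percentile within each library's list on the y axis, and crosses for regions not called. The gene body and the 10 kb around the TSS are empty in all 4 libraries, and the regions 11.9 and 14.1 kb upstream in Pfdn4 were called in each of them.

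The forskolin libraries had 7 and 4 peaks at Cyp24a1 against 3 and 3 in the vehicle libraries, averaging 5.5 ± 2.12 under forskolin and 3.0 ± 0.00 under vehicle (SD of 2 libraries, exact two-sided permutation p = 0.333). As shares of their lists these were 0.0274% and 0.0206% under forskolin and 0.0204% and 0.0295% under vehicle, which overlap. With equally long lists the difference in means was -1.0 and within 50 kb it was -0.5, so its sign was not kept.

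Sequence matches were counted within 100 bp of the centre of every region on both strands. For Vdr, 3 of 15 regions held the CRE core, 5 the RUNX site, 3 the AP-1 site TGAGTCA, 1 the C/EBP site TTGCNNAA and 2 the hexamer AGGTCA. Over all 28335 regions the shares were 29.1%, 24.2%, 13.9%, 8.36% and 10.6% in the same order. For Cyp24a1, 1 of 7 regions held the CRE core, 1 the RUNX site, 1 the AP-1 site, and 0 the C/EBP site or the hexamer. The palindromic CRE contains the core, and it counts under both. A VDRE, taken as a direct repeat of 2 hexamers (AGGTCA or close variants) with 3 bases between them, was found in 0 of the 22 regions and in 8 of all 28335 (0.0282%). The 3 upstream forskolin-only regions at Vdr held no CRE core. Among the 6 forskolin-only regions of both genes, 1 held the CRE core and 3 the RUNX site, against 38.6% and 33.4% of all forskolin-only regions. Among their 7 regions of all libraries, 3 held the CRE core and 2 the RUNX site, against 39.3% and 15.9% of all such regions.

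Genes of the wider vitamin D pathway had forskolin-only regions about as often as other genes. Of 36 genes, 15 (41.7%) had 1 or more in the gene or within 100 kb of a TSS, against 40.1% of all protein-coding genes. Within 10 kb there were 5 (13.9%, against 8.88%), among them Rxra, Runx2, Cebpb and Pthlh. Rxra encodes the main heterodimer partner of the receptor and had 3 of them, the best placed at -4230 bp from a TSS (chromosome 2, 27527521 to 27527938, percentiles 64.9 and 31.9). Runx2, which encodes a factor needed for osteoblast differentiation, had 2, of which the higher-ranked lay at -2056 bp (percentiles 73.0 and 69.0). Pthlh, the gene of parathyroid hormone-related protein, had 1 at 3129 bp downstream (percentiles 57.2 and 22.2), and Cebpb, the gene of a transcription factor known to act at Cyp24a1, 1 at 9198 bp (percentiles 20.1 and 36.4).

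By role, a forskolin-only region within 100 kb was found for 1 of 3 partner genes, 2 of 6 genes of vitamin D metabolism, 1 of 3 genes of transport and uptake, 3 of 7 coregulators and 7 of 16 targets. In metabolism the genes were Cyp24a1 and Cyp2r1, the gene of the liver 25-hydroxylase. Cyp27b1 encodes the enzyme that makes the active hormone and so acts opposite to Cyp24a1. It had 11 regions, of which 8 were called in all 4 libraries and 0 were forskolin-only, against 31.5% and 18.3% of all 28335 regions. Of these 8 regions, 0 lay within 1 kb of a Cyp27b1 TSS. A count of 0 forskolin-only regions was shared by 13323 of the 22225 protein-coding genes. Rxrb, another partner, had 12 regions, 9 of them in all 4 libraries and 0 forskolin-only, beside the same shares over all regions. Rxrg had 0 regions. Promoters, taken as 1 kb on each side of a TSS, had a region called in every library for 6 genes (16.7%, against 30.4% of all genes), among them Rxrb, Dhcr7, Med1, Ncoa2 and Snw1, and for 0 of the 16 targets. Vdr and Cyp24a1 were among the genes without it.

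**Figure D4:**
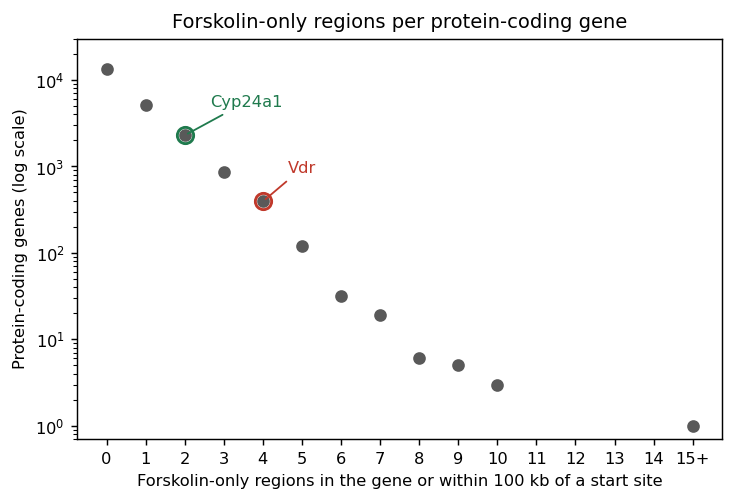
Forskolin-only regions per protein-coding gene, counted in the gene or within 100 kb of a TSS. The x axis is the number of regions and the y axis the number of genes on a log scale, and rings mark the counts of Vdr (4) and Cyp24a1 (2). Vdr shares its count with 393 genes in all and Cyp24a1 with 2289.

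Genes of like pattern were found by summing, for each library, the percentiles of all regions of a gene and taking the Euclidean distance between genes over the 4 sums, leaving out genes that shared a region. For Vdr the sums were 855 and 636 under forskolin and 343 and 205 under vehicle. The nearest of 22214 genes were Pgs1, Zdhhc7, Art4, Tmed10 and Gipc2, at distances of 48.4 to 81.9, where the median distance was 884. The nearest genes lie below the median by selection, and the sums grow with the number of regions of a gene. For Cyp24a1 the sums were 254 and 142 under forskolin and 111 and 91.2 under vehicle. The nearest were Gm6905, Ctdp1, Arhgap44, Ccdc8 and Ppp5c, at 11.4 to 19.9 with a median of 273. The last 2 have the same sums. Gm6905, Ccdc8 and Ppp5c had 0 forskolin-only regions, Arhgap44 had 1 and Ctdp1 had 2, against 2 for Cyp24a1.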

How the data were processed

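Phospho-CREB ChIP-seq peak lists of 4 MC3T3-E1 libraries were used, 2 per treatment, with groups and replicate numbers from the sample titles. The tools named in the submitters' processing notes are Bowtie and HOMER, without versions, and the build is mm9. Each library has its own list. The deposited score of a peak, set by the authors, has no stated scale. Calling settings, and whether an input was used, are not stated in the labels or lists used here. The lists give no counts, so precision is limited by 2 libraries per group, and no intervals were computed.

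All 28335 regions fitted the 21 chromosomes of NCBIM37, and genes, symbols and TSS came from GENCODE M1. Merging, classes and percentiles were tested on simulated lists of 27291 regions. Analyses used Python 3.11.15, numpy 2.4.6 and scipy 1.17.1, and figures matplotlib 3.10.9.

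Members, gene lists, motifs and tests were chosen with earlier results of these data known. Named genes were Vdr and Cyp24a1, genes next to their regions, list genes with a forskolin-only region within 10 kb or behind a count, and the 5 genes of most like pattern. Alternatives covered merging, list length, window, left-out libraries, a replicate block and the ranking set. The values of 1 list gene and the sequence of 1 region are not reported here.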

Additional observations from a re-analysis of the deposited data

How the results depend on the processing

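Of 79 alternatives run for the class counts, peak numbers, mean percentiles and list counts, 18 moved a count of regions or genes by over 1.5 times and 2 turned a difference round in sign. The other 59 left such a count within 1.5 times, or left a difference with its sign and its p above 0.05, whatever its size. Among the differences, that in peak number at Vdr was 2.50 with equally long lists, that at Cyp24a1 was 1.00 with the top 50% of each list, and that in mean percentile at Vdr was 37.9 with the top 50% and 11.2 with equally long lists. With the top 50% of each list, Vdr had 2 forskolin-only regions and 2 of all libraries, and Cyp24a1 0 and 0. With equally long lists the counts were 1 and 3 for Vdr and 0 and 0 for Cyp24a1, and 9 and 3 genes of the vitamin D list had a forskolin-only region within 100 and 10 kb. With a 50 kb window Cyp24a1 had 0 forskolin-only regions and with 200 kb it had 7, while Vdr had 8 regions of all libraries at 200 kb. The difference in mean peak number at Cyp24a1 was -1.0 with equally long lists and -0.5 within 50 kb. The cause of these shifts was not tested beyond the shorter lists and other windows that define them. The upstream Vdr region was called in all 4 libraries under both other merging rules, with the top 50% of each list and with equally long lists.

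With 1 library left out, a class needs fewer calls. Over the 4 such settings Vdr had 4 to 7 forskolin-only regions and 5 to 8 of all libraries, the extremes without vehicle replicate 1 (7) and without vehicle replicate 2 (8). Cyp24a1 had 2 to 4 forskolin-only regions, the 4 without forskolin replicate 2, and 2 to 3 of all libraries. The list counts ran from 17 to 23 genes within 100 kb and from 5 to 11 within 10 kb, both highest without forskolin replicate 2. The differences in peak number ran from 4.50 to 8.50 at Vdr and from 1.00 to 4.00 at Cyp24a1, and that in mean percentile from 14.6 to 27.2.

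Within the replicate block, with labels exchanged only inside a replicate number, the differences stayed 6.50 and 2.50 peaks and 19.3 points, each with an exact permutation p of 0.5, the smallest a block of 2 pairs allows. The labels do not say that a number marks a shared culture. Over the 8930 shared regions, the differences between replicates 1 and 2 correlated at Pearson r = 0.133 between the treatments. The ranking among shared regions and the left-out libraries for peak numbers and percentiles were chosen after seeing the data.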

Other observations

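A set of 14 regions stood at or above percentile 99 in both forskolin lists and below percentile 75 in both vehicle lists. These limits were set after the Vdr values had been seen. Most of the 14 lay kilobases from the nearest TSS. Such a position was common, since 18183 of all 28335 regions lay over 1 kb from any protein-coding TSS. The region nearest to Pappa2, which encodes a protease of insulin-like growth factor binding proteins, was at percentiles 100 and 99.9 under forskolin and 37.8 and 40.9 under vehicle, -8164 bp from the TSS. That nearest to Ptn, the gene of the growth factor pleiotrophin, was at 100 and 99.9 under forskolin and 71.9 and 42.8 under vehicle, at -19331 bp. The region at Lrp4, which encodes a receptor for sclerostin in bone, lay 36 bp from its TSS, at 99.3 and 99 under forskolin and 53.8 and 62.5 under vehicle.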
